A study of Homo sapiens with 2 samples.

Results

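The H3K4me3 regions that border the centromere gaps of the hg19 human genome assembly were examined in HEC-1-B cells, a long-established line from a human endometrial adenocarcinoma. They were chosen by position alone: a region was a member when its nearest edge lay within 2 Mb of one of 17 gaps, each 3 Mb long, on chromosomes 1 to 12 and 16 to 20. By this rule 531 of the 20567 deposited wild-type regions and 653 of the 20509 deposited knockout regions were members, 1184 of 41076 in all. The comparison group was all other regions on chromosomes 1 to 22, X and Y, 19251 wild-type and 18994 knockout regions.

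The study mapped H3K4me3 by ChIP-seq, the sequencing of DNA recovered with immunoprecipitated chromatin, in wild-type HEC-1-B cells and in ZNF143KO cells, a derivative of the same line that lacks the zinc-finger transcription factor ZNF143. Each genotype had 1 library and 1 peak list. The labels state no treatment, and they do not say how many knockout clones were used. With 1 library per genotype no difference has a replicate check and no test between genotypes was made. The 95% intervals below cover counting error only, and neighbouring regions of 1 library are not independent.

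H3K4me3 is laid down by the SET1 and MLL methyltransferase complexes and is concentrated at active promoters. A centromere is built on long arrays of alpha satellite DNA, and the chromatin beside it is largely heterochromatin with satellite repeats and duplicated segments. The hg19 assembly holds most of each array as a gap of fixed size, and the sequence at the edge of a gap can stand for repeats that occur in many copies in a genome. The genes and repeats at the members were not analysed here.

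Each region is described by its width and the following values. The fold, in column 7 of the lists, is the authors' ratio of the summit pileup to the local background, and the −log10 q, in column 9, is the authors' significance of the region. The summit pileup is the number of stacked sequenced fragments at the summit. The local rate is the pileup expected from the surroundings. Both were solved from the authors' fold and p columns under an assumed MACS2 relation, which the sources used here do not state. Every pileup, local rate and pileup ratio below rests on that assumption. The local rate is given as a multiple of the genome background rate, the lowest rate in a library. That genome rate was 1.40 fragments per base for wild-type and 3.25 for knockout cells, 2.31 times as high, which gives the knockout library the greater depth. Recovered pileups were 7 to 6209 fragments for wild-type and 11 to 14245 for knockout regions.

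The question was first whether regions beside the gaps rank alike by fold and by −log10 q. They had a lower fold than other regions in both libraries. The median fold was 8.03 (95% interval 7.18 to 9.20) for the wild-type members and 6.05 (5.41 to 6.71) for the knockout members, against 11.5 and 11.3 for all other regions. Within their own list the members stood at a median fold percentile of 30.3 (25.9 to 36.5) for wild-type and 22 (18.8 to 25.1) for knockout regions, where all other regions stood at 50.4 and 50.7. By −log10 q the members' median percentile was 34.5 (31.1 to 38.4) and 29.2 (26.1 to 31.5). The q rank exceeded the fold rank by a median of 3.26 points (1.55 to 5.50) in the wild-type members, and by 0.036 points (−2.14 to 3.24) in the knockout members, an interval that includes 0.

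Low folds were more frequent among members than among all regions. A fold under 3 occurred in 40 of 531 wild-type members (7.53%) and 84 of 653 knockout members (12.9%), while 2.32% and 3.65% of all regions of the 2 lists had such a fold. A fold in the lower 25% of the list joined to a −log10 q in the upper 50% occurred in 19 members of each list, 3.58% (2.17 to 5.53%) of the wild-type and 2.91% (1.76 to 4.51%) of the knockout members, while 1.22% and 0.85% of all regions had that combination. The lowest fold in each whole list belonged to a member, 1.54 (wild-type, on chromosome 10) and 1.46 (knockout, on chromosome 2).

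**Figure D1:**
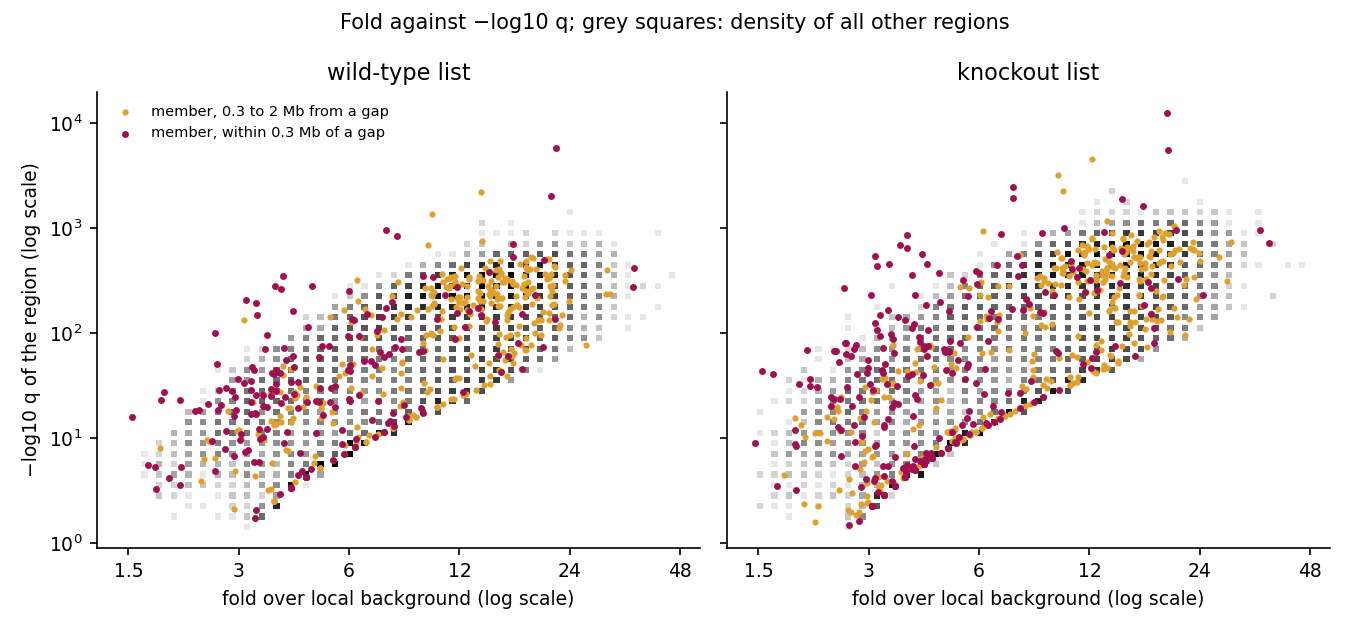
Each point is a region bordering a gap, with its fold on the horizontal axis and its −log10 q on the vertical axis (both log scales), for the wild-type list (left) and the knockout list (right); grey squares, darker where more regions fall, are all other regions. Dark red points, within 0.3 Mb of a gap, lie mostly to the left of the orange points, at 0.3 to 2 Mb, and several of them stand above the grey area at a fold of 3 to 8.

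The fixed rule named the 3 members of each list in which the q rank stood furthest above the fold rank, and all of them lay on chromosome 10 between 129278 and 137229 bp beyond the long-arm edge of the gap. The region from 42388285 to 42388544 had a fold of 3.95 in the wild-type list, the 6.58 percentile, and a −log10 q of 346, the 88.0 percentile. Its pileup was 1271 fragments on a local rate of 228 times the genome rate. In the knockout list the same place, from 42388284, had a fold of 3.82 and a −log10 q of 857, with a pileup of 3278 on 264 times the genome rate. The other wild-type regions named in this way were 42384279 to 42385721 (fold 7.57, −log10 q 955) and 42386982 to 42387481 (fold 3.78, −log10 q 280). The other knockout regions were 42386978 to 42387483 (fold 3.65, −log10 q 691) and 42392230 to 42393430 (fold 3.8, −log10 q 649). At all of these places a tall pileup stood on a surrounding that was itself at least 178 times the genome rate.

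The reverse case, a high fold with a modest −log10 q, was found where the local rate was near the genome rate. On chromosome 2 the wild-type region from 91937044 to 91937256 had a fold of 26.6, the 99.04 percentile, and a −log10 q of 77.5, the 40.1 percentile. Its knockout counterpart, from 91937039 to 91937255, had a fold of 21.9 and a −log10 q of 95.2. The pileups were only 63 and 92 fragments, on the genome rate itself in both libraries. Next by the rule among wild-type members were 93560329 to 93560698 of chromosome 3 (fold 17.8, −log10 q 45.1) and 29518432 to 29519121 of chromosome 20 (fold 20.3, −log10 q 72.9). Among knockout members they were 29829347 to 29829767 of chromosome 20 (fold 19.9, −log10 q 102) and 90527671 to 90528061 of chromosome 2 (fold 22.4, −log10 q 136). Local rates at these 4 places were at most 1.82 times the genome rate.

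Regions of high fold were present beside the gaps as well. The 3 of highest fold among the wild-type members were 92269062 to 92269745 of chromosome 2 (fold 36), 42409197 to 42409411 of chromosome 10 (fold 35.7) and 46112699 to 46113562 of chromosome 9 (fold 31.0). Among knockout members the chromosome 10 region reached 37.1 and the chromosome 2 region 34.9, and the third was 26878845 to 26879680 of chromosome 17 (fold 29.2). The chromosome 2 and chromosome 10 regions lay 56255 and 154196 bp from a gap and stood on local rates of 6.27 and 3.84 times the wild-type genome rate. Regions of very low fold lay close to the chromosome 10 region, in the run described below.

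The local rate itself separated the members mainly in its upper tail. The median local rate was 10.6 times the genome rate (9.48 to 11.7) in wild-type members and 7.17 times (6.23 to 8.80) in knockout members, below the 11.8 and 9.69 times of all other regions. A rate over 50 times the genome rate, a limit set after the values were seen, was reached by 33 of 531 wild-type members (6.21%, 4.32 to 8.62%) and 42 of 653 knockout members (6.43%, 4.67 to 8.59%), against 0.784% and 0.422% of all regions. The 20 highest local rates of each list were all at members. None of the 184 wild-type or 199 knockout members between 1 and 2 Mb from a gap exceeded 50 times.

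By pileup, the highest region of both lists on chromosomes 1 to 22, X and Y was the same member. This member lay on chromosome 1 from 121484091 to 121485433, 49567 bp before the gap. It held 6209 wild-type and 14245 knockout fragments, on local rates of 201 and 224 times the genome rate, with folds of 21.9 and 19.5. It also had the highest −log10 q of each list on these chromosomes, 5758 and 12516. Members made up 6 of the 10 highest wild-type pileups and 8 of the 10 highest knockout pileups, whereas 2 of the 10 highest folds in each list were members. After it came a member of chromosome 10 and a member of chromosome 19, all chosen after their values were seen. On chromosome 10 from 42596797 to 42597338 the wild-type pileup was 3000, and the knockout region from 42596795 to 42598208 had 6570. On chromosome 19 from 27731909 to 27732782 the wild-type pileup was 2214, and the knockout region from 27731896 had 6230.

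Distance from the gap was examined next, with bins set after the data were seen. Fold was lowest within 0.3 Mb of the gaps and reached the level of other regions beyond 1 Mb. In the wild-type list the median fold was 4.40 (4.00 to 5.30) over 129 regions within 0.1 Mb, 5.47 (4.22 to 7.49) over 61 regions at 0.1 to 0.3 Mb, 10.1 (8.30 to 11.7) over 157 regions at 0.3 to 1 Mb and 12 (10.8 to 13.0) over 184 regions at 1 to 2 Mb. The knockout medians in the same order were 4.26 (3.96 to 4.71) over 170 regions, 4.19 (3.77 to 4.81) over 88, 6.81 (6.05 to 9) over 196 and 11.4 (10.1 to 12.5) over 199. Between 2 and 5 Mb the medians were 12.4 and 12. The intervals of the 2 bins within 0.3 Mb did not overlap those of the 2 bins beyond 0.3 Mb in either list.

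Within 0.3 Mb the q rank also stood clearest above the fold rank: the median difference was 10.5 points over 190 wild-type regions and 8.37 points over 258 knockout regions. At the 2-Mb border of the rule, values on its inner and outer side had overlapping intervals. The 101 wild-type regions just inside it, at 1.5 to 2 Mb, had a median fold of 12.1 (10.2 to 13.8), and the 95 just outside, at 2 to 2.5 Mb, one of 10.4 (8.27 to 12.6). For the knockout list these values were 11.2 (9.46 to 13.2) over 106 regions and 10.3 (7.44 to 12.3) over 99.

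**Figure D2:**
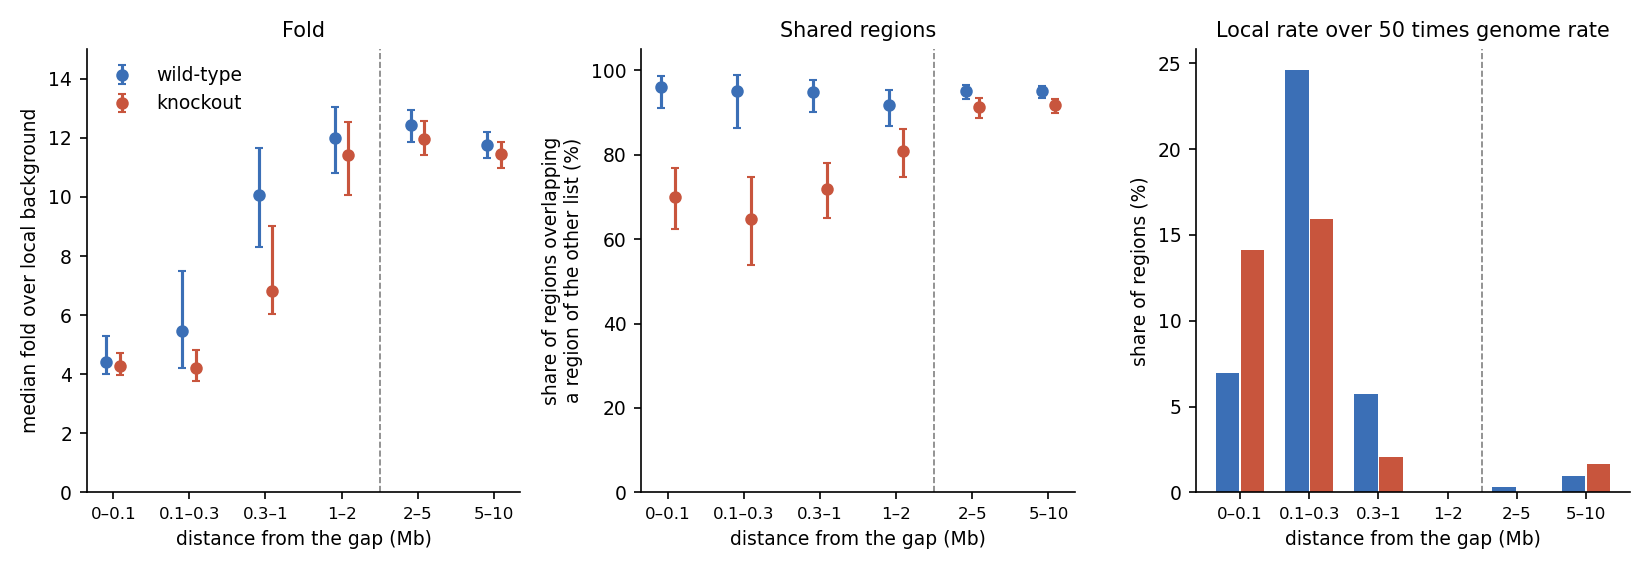
Regions are grouped by distance from the gap (horizontal axis, Mb): the left panel gives the median fold and the middle panel the share of regions shared with the other list, both with 95% intervals, and the right panel gives the share with a local rate over 50 times the genome rate. Wild-type is blue and knockout red, and the dashed line marks the 2-Mb limit of the rule. Fold is 4.40 and 4.26 in the nearest bin and 12 and 11.4 at 1 to 2 Mb. The lowest knockout median, 4.19, is at 0.1 to 0.3 Mb. The intervals of the shared share do not overlap between the lists in any bin within 2 Mb, nor at 5 to 10 Mb.

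The regions nearest to a gap were named by the fixed rule. Gap starts are given by the rule to 1 kb, so a distance of 0 means only that a region touches the rounded position. Among wild-type members they were 49659136 to 49660061 of chromosome 4, 49405717 to 49405933 of chromosome 5, and 92324337 to 92325880 of chromosome 2. Their folds were 15.3, 7.67 and 7.58, with pileups of 70, 22 and 340 fragments. The overlapping knockout regions were also the 3 nearest, with folds of 16.9, 8.30 and 6.71 and pileups of 215, 60 and 975.

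Members were narrower than other regions. The median width was 561 bp (500 to 678) in wild-type and 526 bp (485 to 584) in knockout members, against 889 bp (879 to 899) and 1013 bp (1003 to 1024) in all other regions. Within 0.1 Mb of a gap the medians were 362 and 407.5 bp, and at 1 to 2 Mb they were 909.5 and 969 bp. Widths were also read in steps of 25% of each list by fold. In the lowest 25% by fold, members and others had widths of 322 (280 to 349) and 325 bp (317 to 333) in the wild-type, and of 349 (316 to 373) and 356.5 bp (348 to 365) in the knockout list. In the next 25% members were narrower in the wild-type list, with 725 bp (486 to 915) against 936 bp (912 to 959), while the knockout intervals touched, with 951 bp (700 to 1123) against 1154 bp (1122 to 1192). In both higher steps of each list the medians of members were below those of others, but with overlapping intervals in every case.

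The −log10 q of members stood above that of others in the lowest 25% by fold and below it in the next 25%. In the lowest 25% of the wild-type list its median was 17 (12.2 to 20.6) in members against 10.3 (9.70 to 10.9) in others. The knockout medians there were 13.2 (11.3 to 15.7) and 12.3 (12 to 12.8), with overlapping intervals. In the next 25% the members had the lower median in both lists, 69.6 (46.4 to 104.98) against 123 (117 to 129) for wild-type and 147 (66.9 to 228) against 245 (236 to 258) for knockout regions.

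The widest member of both lists was a single region of chromosome 6, from 58776272 to 58779436 in the wild-type list, 3165 bp long and 50564 bp before the gap. Its fold was 3.37 and its −log10 q 149, on a local rate of 141 times the genome rate. The knockout region was 3183 bp long, with a fold of 3.40 and a −log10 q of 457 on 184 times. The remaining named wide regions were 43901982 to 43904626 of chromosome 10 (2645 bp wide for wild-type; the knockout region, from 43901966, was 2680 bp wide), 48649026 to 48651542 of chromosome 8 (2517 bp, wild-type) and 49120501 to 49123239 of chromosome 4 (2739 bp, knockout).

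Many members lay in tight runs. A run was taken, after the data were seen, as 5 or more regions of 1 list that each lay within 10 kb of the next. Runs held 174 of 531 wild-type members (32.8%, 28.8 to 36.9%) and 240 of 653 knockout members (36.8%, 33.0 to 40.6%), against 4.3% and 5.07% of all regions. There were 14 wild-type and 22 knockout runs beside the gaps. Regions of 1 run share their stretch of sequence and are not separate observations.

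The longest run was on the short arm of chromosome 4, where 30 wild-type regions lay between 49093628 and 49163915, with folds of 2.42 to 15.2 and local rates of 1.00 to 15.2 times the genome rate. The knockout list had 35 regions there, with folds of 2.00 to 13.2. On the long arm of chromosome 10 a run of 24 wild-type regions spanned 42356029 to 42409411. Its folds ran from 1.54 to 35.7 and its local rates from 3.84 to 231 times the genome rate, so this run held both the lowest fold of the wild-type list and one of the highest folds among members. The knockout run had 25 regions, with local rates of 4.82 to 266 times. The third run was on the short arm of chromosome 2, with 20 wild-type regions from 92281286 to 92325880 and 19 knockout regions, at median folds of 3.12 and 3.21 and median local rates of 44.6 and 62.2 times the genome rate. The median local rate of the wild-type runs was 8.99 times for chromosome 4 and 107 times for chromosome 10, so low folds occurred in runs on very unlike local rates.

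Much of the low fold among the members lay in these runs. Members in runs had a median fold of 4.25 (wild-type) and 4.09 (knockout), and members outside runs one of 11.4 and 9.84. Without runs the median fold percentile was 49.5 in the wild-type members, close to that of other regions, and 40.7 (33.9 to 46.6) in the knockout members, still below it. The q rank then stood below the fold rank, by 6.09 and 5.22 points. Median width without runs was 799 and 787 bp, and the median local rate 8.05 and 3.15 times the genome rate. Runs elsewhere in the genome had median folds of 6.59 and 5.79.

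The number of members per list was compared across the gaps. There were 122 more members in the knockout than in the wild-type list, a count ratio of 1.23 (1.09 to 1.38), whereas the ratio over all other regions was 0.987 (0.967 to 1.01). Of the 17 gaps, 13 had more members in the knockout list, 2 had fewer (chromosomes 9 and 20) and 2 had equal numbers (chromosomes 6 and 8). By distance, the count ratio was 1.32 (1.04 to 1.67) within 0.1 Mb, 1.44 (1.03 to 2.03) at 0.1 to 0.3 Mb, 1.25 (1.01 to 1.55) at 0.3 to 1 Mb and 1.08 (0.881 to 1.33) at 1 to 2 Mb. It was 0.989 at 2 to 5 Mb.

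**Figure D3:**
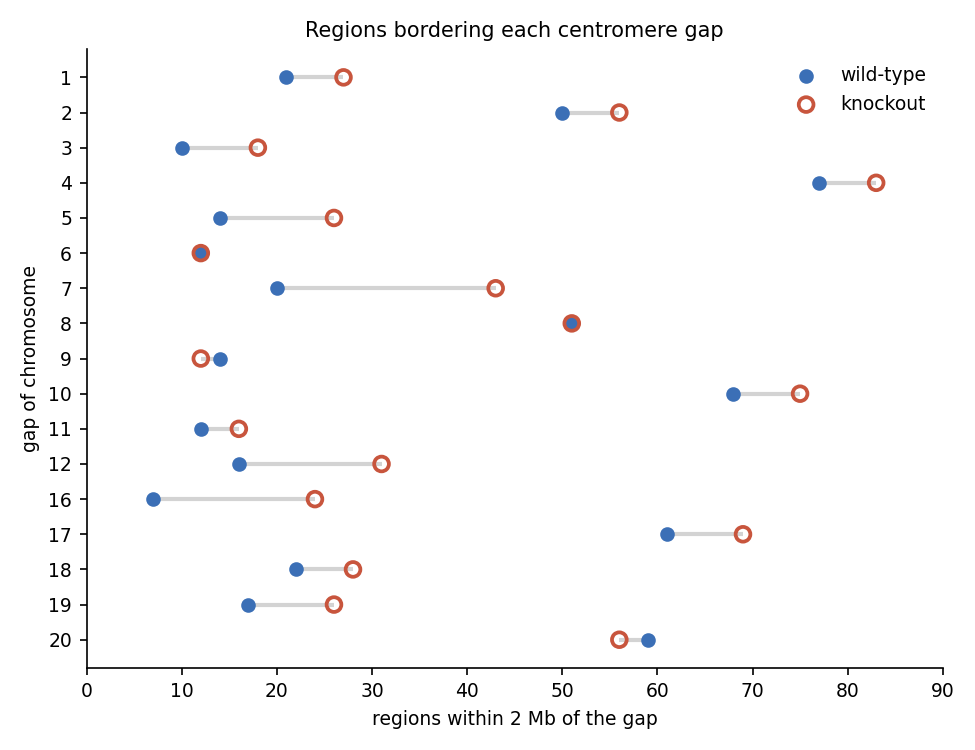
For each gap (vertical axis, chromosome), the number of regions within 2 Mb is given for the wild-type list (filled blue) and the knockout list (open red); a line joins the 2 counts. The widest spread is at chromosome 7, with 20 and 43 regions, and chromosomes 9 and 20 are the only ones with fewer regions in the knockout list.

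The difference was largest at chromosome 7, with 20 wild-type and 43 knockout members, and at chromosome 16, with 7 and 24. It was 15 at chromosome 12, with 16 and 31 members, and 12 at chromosome 5, with 14 and 26. At the remaining gaps the respective counts were 21 and 27 (chromosome 1), 10 and 18 (chromosome 3), 12 and 12 (chromosome 6), 51 and 51 (chromosome 8), 14 and 12 (chromosome 9), 12 and 16 (chromosome 11), 22 and 28 (chromosome 18), 17 and 26 (chromosome 19), 59 and 56 (chromosome 20), and 50 and 56 (chromosome 2). No region of either list lay within 2 Mb of the gap on the long-arm side of chromosomes 1, 9 and 16. Whether the assembly holds sequence in these windows was not examined, so this does not show absence of the mark. On the long-arm side of chromosome 11 only the knockout list had members, 2 in number.

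Chromosomes 4, 10 and 17 bordered the 3 gaps with the most members. Chromosome 4 had 77 wild-type members at a median fold of 5.41 and 83 knockout members at 5.07, and 65 and 72 of these lay on the short arm. Chromosome 10 had 68 and 75 members at median folds of 7.48 and 6.80, and 57 and 60 of these were on the long arm. Chromosome 17 had 61 and 69 members at median folds of 11.1 and 8.35. Its arms differed: the short-arm side had a median fold of 6.72 (wild-type) and 4.41 (knockout), and the long-arm side 11.6 and 11.5. All local rates over 50 times the genome rate at these 3 gaps were on chromosome 10 in the wild-type list (18 regions), while in the knockout list chromosome 10 had 16 and chromosome 17 had 4.

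Overlap between the lists was then measured, a region being shared when at least 1 bp overlapped a region of the other list. Of the wild-type members 500 of 531 were shared, 94.2% (91.8 to 96.0%), and of all other wild-type regions 94.5% (94.2 to 94.8%). Of the knockout members 478 of 653 were shared, 73.2% (69.6 to 76.6%), against 90.9% (90.5 to 91.3%) of all other knockout regions. Unshared regions therefore made up 5.84% of wild-type members and 26.8% of knockout members, where 5.53% and 9.67% of all regions of the 2 lists were unshared. The wild-type share was near that background and the knockout share was not. Within 0.1 Mb of a gap the shared share was 96.1% (91.2 to 98.7%) of wild-type and 70% (62.5 to 76.8%) of knockout regions, and at 1 to 2 Mb it was 91.8% (86.9 to 95.4%) and 80.9% (74.7 to 86.1%). At 2 to 5 Mb it was 95.1% and 91.3%.

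Unshared knockout members were weak. Their median fold was 3.77, their median pileup 21 fragments and their median width 277 bp, and the highest pileup among the 175 was 342. For 147 of them no wild-type region lay within 1 kb. The 1725 unshared knockout regions elsewhere had a median fold of 4.24, pileup of 22 and width of 273 bp. They differed in the local rate: 66 of 175 unshared members (37.7%) stood on the genome rate itself, against 60.8% of the unshared regions elsewhere. The 31 unshared wild-type members had a median fold of 4.58 and a median pileup of 13 fragments.

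The shared share was also read within deciles of fold. In the lowest fold decile of the knockout list 49.5% (42.3 to 56.7%) of 196 members and 57.1% (54.7 to 59.5%) of 1687 other regions were shared. In the second decile the shares were 54.3% (44.8 to 63.6%) of 116 members and 69.4% (67.3 to 71.5%) of 1885 others. When the other regions were weighted to the members' fold deciles, 79.8% of them were shared, against 73.2% of members. Weighted by pileup or −log10 q the others' share was 84.9% or 82.2%. The part of fold or pileup in the lower share was not tested. In the lowest fold decile of the wild-type list 90.8% (84.9 to 95%) of 142 members and 79.7% (77.7 to 81.5%) of 1782 others were shared. In the second decile the shares were 80.3% (68.7 to 89.1%) of 66 members and 76.4% (74.5 to 78.3%) of 1966 others, with overlapping intervals, and in the fifth and ninth deciles 1 member each was unshared and the members' share was the lower. Weighted to the wild-type members by fold, pileup or −log10 q, the others' share was 90.5%, 93.9% or 92.2%, against 94.2% of members.

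**Figure D4:**
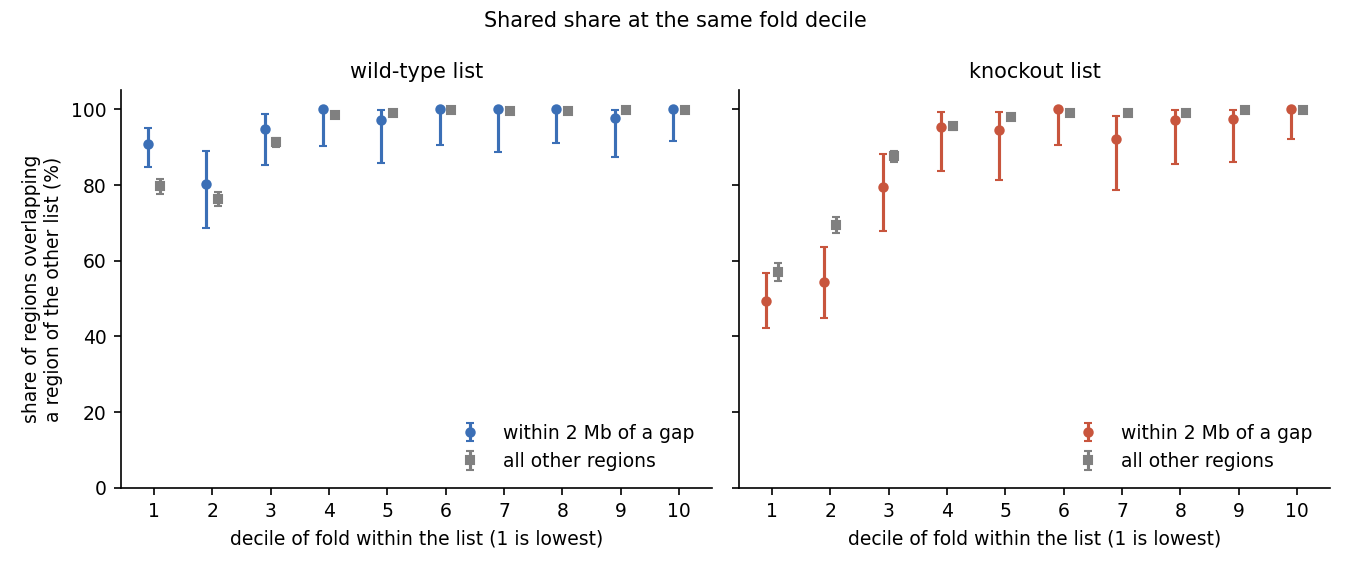
The share of regions that overlap a region of the other list (vertical axis, %, with 95% intervals) is given by decile of fold within the list (horizontal axis) for regions within 2 Mb of a gap (coloured circles) and all other regions (grey squares). In the lowest decile the members lie above the others in the wild-type list (90.8% and 79.7%) and below them in the knockout list (49.5% and 57.1%); from the fourth decile up every share is at least 92.1%.

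As an alternative, the solved knockout pileups and local rates were scaled to the wild-type genome rate. Knockout regions whose recomputed −log10 p fell under the lowest wild-type value were dropped. No regions were called anew, so the kept regions have their deposited borders and widths. The scaled list had 588 members, a count ratio of 1.11 (0.983 to 1.25) against 0.957 (0.938 to 0.976) for all other regions, and 79.4% of its members were shared against 92.7% of others. The interval of the members' count ratio then included 1. The part of depth in these differences was not tested.

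The rule also named, in each list, the 3 members of highest fold that had no counterpart in the other list within 1 kb. Among wild-type members these were 95872517 to 95873283 of chromosome 2 (fold 16.7, pileup 65), 21848895 to 21849077 of chromosome 17 (fold 10.4, pileup 24) and 25213928 to 25214187 of chromosome 20 (fold 7.90, pileup 18). Among knockout members they were 34371211 to 34372065 of chromosome 12 (fold 17.2, pileup 80), 21279692 to 21280554 of chromosome 17 (fold 15.9, pileup 93) and 14430714 to 14431646 of chromosome 18 (fold 13.6, pileup 77). Even these stood at or below the 27.8 percentile of their own list by pileup.

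Members present in both lists were compared by pileup. Across all 16501 one-to-one pairs the median knockout pileup was 1.86 times the wild-type one, and log2 ratios were centred on that value. The 453 member pairs had a median ratio of 2.13 (2.02 to 2.27), or 0.19 (0.12 to 0.29) after centring, and the other 16048 pairs one of 1.85 (1.85 to 1.86), or −0.0035. Above the centre lay 311 of 453 member pairs (68.7%, 64.2 to 72.9%), where 50% of all pairs do by construction.

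The excess was largest in the bins at the gap edge, where most pairs lay in runs. Distance and runs are separated below. Within 0.1 Mb the median ratio was 2.83 (2.74 to 2.90) over 114 pairs, from median pileups of 103.5 wild-type and 269.5 knockout fragments, and 110 of the 114 pairs lay above the centre. At 0.1 to 0.3 Mb it was 2.56 (2.34 to 2.64) over 56 pairs. It was 1.95 (1.86 to 2.03) over 133 pairs at 0.3 to 1 Mb and 1.86 (1.79 to 1.92) over 150 pairs at 1 to 2 Mb, the level of all pairs. Both bins within 0.3 Mb also exceeded 2.31, the ratio of the genome background rates. The local rates beneath these pairs moved in the same way: the knockout local rate was 2.87 times the wild-type one (2.82 to 2.94) within 0.3 Mb and 2.03 times over all other pairs. Pileup and local rate were thus raised together, and the fold percentile was higher in the knockout list by a median of only 0.63 points (0.26 to 1.23) within 0.3 Mb.

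**Figure D5:**
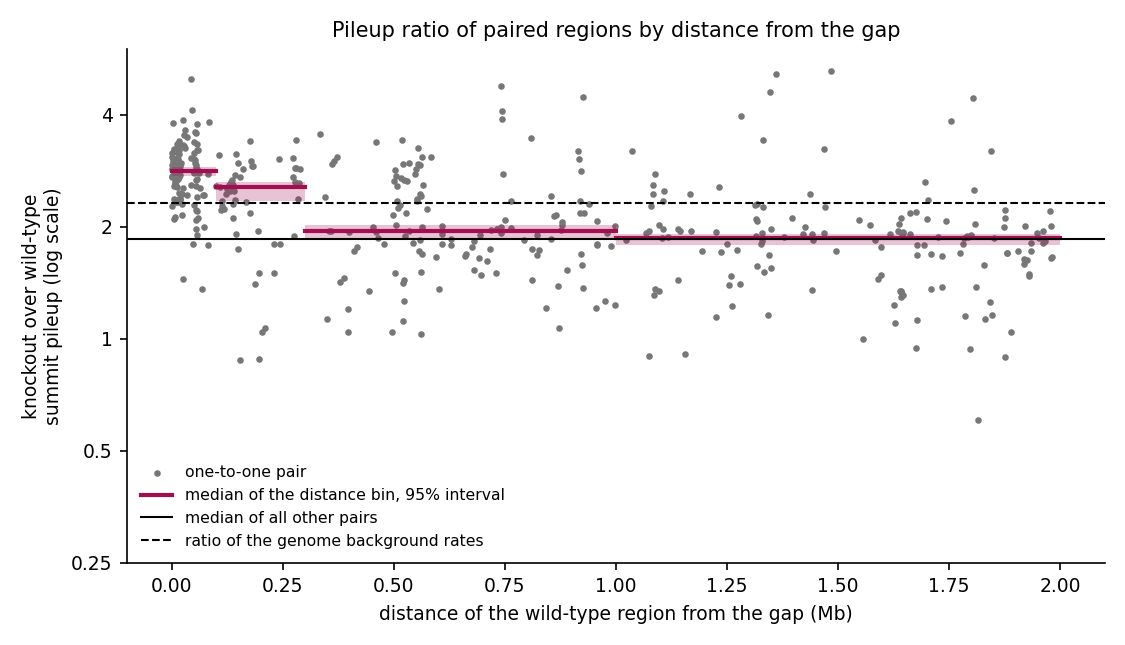
Each point is a one-to-one pair of regions within 2 Mb of a gap, with the distance of its wild-type region from the gap (Mb) and the knockout over wild-type summit pileup (log scale). Dark red lines with bands are bin medians and 95% intervals, the solid line is the median of all other pairs (1.85) and the dashed line the ratio of the genome background rates (2.31). Medians within 0.3 Mb, 2.83 and 2.56, lie above both lines, and most pairs there lay in runs.

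The raised ratio was seen on most gap edges, but pairs of 1 run are not separate observations. For the long arms of chromosomes 8 and 19, all pairs counted below lay in 1 run each. Of the 19 pairs of the short arm of chromosome 2, 18 lay in 1 run. The 32 pairs of the long arm of chromosome 10 lay in a run of 23 pairs and a run of 9. On other short arms, 1 run each held 9 of 10 pairs (chromosome 17), 11 of 13 (chromosome 8), 10 of 10 (chromosome 11) and 14 of 17 (chromosome 4). On the short arm of chromosome 1 and the long arm of chromosome 18, 1 run each held 5 of 8 and 5 of 7. Of the 12 chromosome sides with at least 5 pairs within 0.3 Mb, all 12 had a median above the centre and 11 had a median above the rest of their chromosome, with chromosome 3, long arm, the exception. On the short arm of chromosome 2 the centred log2 median was 0.79, with 19 of 19 pairs above the centre. It was 0.78 on the long arm of chromosome 19 (6 of 6), 0.70 on the short arm of chromosome 17 (10 of 10) and 0.47 on the long arm of chromosome 10 (32 of 32). Chromosome 8, whose pairs away from the gap had a median of −0.36, had 0.48 on its short arm (13 of 13) and 0.57 on its long arm (10 of 10). Over all 23 sides with a pair, 19 had a median above the centre and 18 one above the rest of their chromosome. The 4 sides below the centre had 2 or 3 pairs each: −0.80 on the long arm of chromosome 2, −0.59 on the long arm of chromosome 20, −0.17 on the short arm of chromosome 3 and −0.046 on the long arm of chromosome 4.

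The ratio followed the runs. The 173 member pairs in runs had a median ratio of 2.75 (2.67 to 2.85), and the 280 outside runs one of 1.87 (1.8 to 1.92), the level of all pairs. Runs elsewhere in the genome, with 685 pairs, had 1.97 (1.93 to 2.01). Of the 14 wild-type runs beside gaps, 12 had median ratios between 2.5 and 3.22. The exceptions were a run on chromosome 20 from 25825261 to 25849137, with 1.89 over 5 pairs, and one on chromosome 17 from 27037566 to 27056002, with 1.86 over 5 pairs. The run of chromosome 4 that starts at 49093628, although 496085 bp from the gap, had a median of 2.67 over 25 pairs.

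The ratio was also read at like local rate, like pileup and like fold. Among pairs whose wild-type local rate was over 50 times the genome rate, the 29 member pairs had a median ratio of 2.58 (2.49 to 2.81). The 93 other pairs had one of 1.89 (1.84 to 1.96). Of the 33 wild-type members over that rate, 18 lay on the long arm of chromosome 10, and neighbours there are not separate observations. Other pairs in the same deciles of wild-type pileup as the pairs within 0.3 Mb had a median centred log2 ratio of 0.02, against 0.55 (0.50 to 0.60) for those pairs. In the same deciles of wild-type fold, other pairs had 0.097. Leaving out 1 gap at a time moved the median centred log2 ratio over all member pairs between 0.12, without chromosome 4, and 0.24, without chromosome 20. The local rate and the pileup moved together, and the part of either in this result was not tested.

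Single pairs far from the centre were few. A centred knockout pileup more than 2-fold higher occurred in 16 of 453 member pairs (3.53%, 2.03 to 5.67%) and one more than 2-fold lower in 6 (1.32%, 0.488 to 2.86%), against 2.5% and 1.98% of all pairs, so both shares lay near the background. A fold percentile higher by over 25 points in the knockout list occurred in 8 member pairs, against 2.02% of all pairs, and one lower by over 25 points in 4, against 1.37%. The highest centred log2 ratio, 1.49, was at 96810670 to 96811169 of chromosome 2, with 17 wild-type and 89 knockout fragments. Next were 33975122 to 33975351 of chromosome 16, with 13 and 67 fragments, and 92281286 to 92281517 of chromosome 2, with 45 and 224 fragments. The lowest centred log2 ratio, −1.62, was at 44069444 to 44070287 of chromosome 10, with 104 and 63 fragments. Next lowest were 29523720 to 29524123 of chromosome 20, with 16 and 14 fragments, and 95522575 to 95522775 of chromosome 2, with 17 and 15. Only the first of these low pairs had over 20 fragments in either library. Positions of pairs are those of the wild-type regions.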

How the data were processed

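H3K4me3 ChIP-seq peak lists from 1 wild-type and 1 ZNF143KO library of HEC-1-B cells were used. Bowtie2, SAMtools 1.12, MACS2, deepTools and the builds GRCh37 and hg19 are named per the submitters' processing notes. Parameters and a control library are not given in the sources used here. The deposited lists have the 10-column narrowPeak layout without a header. The deposited column 7 was read as a ratio (fold) and the deposited columns 8 and 9 as −log10 p and −log10 q values. The deposited score equalled 10 times column 9 to within 1 unit and was not used. These values are the authors' own and were ranked only within a list. The deposited summit offset gave the summit position.

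For each region a whole-number pileup and a local rate were solved on the assumption that the p-value is a Poisson upper tail and the fold a quotient of pileup and rate, each raised by 1, a relation not given in the sources used here. All regions had a solution, with relative errors of at most 2.67e-05, and the solver was tested on simulated lists. Total read counts were not used, so depth is known only through the genome background rate. On other sequences 785 wild-type and 862 knockout regions were left out. Shares carry exact Clopper-Pearson intervals, medians exact order-statistic intervals and count ratios intervals from the exact binomial share, all at 95%. Coordinates are hg19, counted from 1. The rule for named regions took, in each list, the 3 members of highest fold, of largest and smallest q minus fold percentile, of highest fold without a region of the other list within 1 kb, of greatest width and nearest to a gap, the 3 highest and 3 lowest centred pairs, and the 3 gaps with most members. The members, lists and rules were chosen with earlier results of these data known. The work was done in Python 3.11.15 with pandas 2.3.3, numpy 2.4.6 and scipy 1.17.1, and figures with matplotlib 3.10.9.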

Additional observations from a re-analysis of the deposited data

How the results depend on the processing

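No paired analysis was possible because a single library stands for each genotype. Values are given for the wild-type and then the knockout list. Members numbered 347 and 454 with a window of 1 Mb, 1180 and 1295 with 5 Mb, and 357 and 413 without runs of 5 or more regions, a setting chosen after seeing the data. Median fold percentiles became 20.0 and 16.1 at 1 Mb, 46.2 and 39.5 at 5 Mb, 49.5 and 40.7 without runs, and 36.8 in the wild-type list after merging regions within 1 kb. Median −log10 q percentiles became 27.8 and 25.5 at 1 Mb, 44.7 and 40.4 at 5 Mb, and 44.3 and 31.6 without runs. The excess of the q over the fold percentile was the least stable result. It fell below 0, to −0.37 and −0.40 after merging, to −6.09 and −5.22 without runs and to −0.084 in the knockout list at 5 Mb. It was 3.64 in the knockout list when regions under a −log10 q of 5 were dropped. Other regions stood at −1.38 and −1.40 after merging, and in the knockout list at −0.92 at 5 Mb and 0.26 with those regions dropped. Members thus stayed above others in these settings, and the setting without runs has no such value for others. Leaving out 1 gap at a time gave −1.46 to 1.38 in the knockout list. It was below 0 without chromosome 4 (−1.46), 5 (−0.066), 8 (−1.20), 10 (−0.79) or 11 (−0.081).

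Median widths became 459 and 458.5 bp at 1 Mb, 796.5 and 846 bp at 5 Mb, 953.5 and 934 bp after merging, 799 and 787 bp without runs, and in the knockout list 607 bp without regions under a −log10 q of 5 and 603.5 bp in the scaled list. Other regions had 1140 and 1235 bp after merging and 901 and 1028 bp without runs, so members stayed narrower. Median local rates became 9.02 and 4.80 times after merging, 8.05 and 3.15 times without runs, and in the knockout list 9.01 times at 5 Mb, 9.21 times without regions under a −log10 q of 5 and 9.10 times in the scaled list. Those of other regions were 10.6 and 8.77 times after merging and 11.8 and 9.55 times without runs. The shared share became 81.9% and 66.6% under a reciprocal overlap of 50%, and in the knockout list 82.2% at 5 Mb, 77.2% without regions under a −log10 q of 5, 79.4% in the scaled list and 77.5% with regions within 1 kb counted. The median centred log2 pileup ratio became 0.40 at 1 Mb, 0.0696 at 5 Mb, 0.11 after merging and 0.0062 without runs. The count ratio stayed above 1 in all settings run, from 1.1 at 5 Mb to 1.31 at 1 Mb, and between 1.19 and 1.26 without any 1 gap. Limiting the other regions to the 17 chromosomes of the rule turned their q minus fold percentile from −0.27 and −0.90 to 0.79 and 0.11. Against these, the wild-type members, at 3.26, stayed above, and the knockout members, at 0.036, stood below. The causes of these shifts were not tested. Regions of under 7 wild-type or 11 knockout fragments were in neither list, so an unshared weak region does not show absence of the mark.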
